A study of Homo sapiens with 3 samples.

Results

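Subtelomeric HDAC1 summits are the CUT&Tag peak summits that lie within 2 Mb of either end of chromosomes 1 to 22 on the hg19 build. They were selected by position alone. The control list held 744 of them among 9476 summits and the H89 list 975 among 11553, together 1719 of 21029. The comparison set was the 8314 control and 10010 H89 summits elsewhere on the autosomes. The control group was 1 HDAC1 library from untreated HepG2 cells, a human hepatocellular carcinoma line. The H89 group was 1 library from HepG2 cells treated with H89, a compound that inhibits protein kinase A (PKA), the kinase activated by cAMP. Both are labelled with the genotype WT. The labels give neither dose nor duration of H89, and the 1 IgG library from untreated cells was not analysed here.

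HDAC1 is a class I histone deacetylase that works in corepressor complexes such as Sin3, NuRD and CoREST, which also occupy active promoters. Human chromosome ends consist of telomeric repeats, then blocks of duplicated sequence shared between several chromosomes, then unique sequence that is often rich in genes, GC bases and CpG islands. Histone deacetylation is known to take part in silencing close to telomeres. In CUT&Tag an antibody tethers a transposase to the target protein, so that sequenced fragments accumulate where the protein sits.

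Each summit is a single base with a deposited score, read here as the −log10 of an unadjusted p-value. With 1 library per condition there was no replicate check and no test of H89 against the control. Comparisons between chromosome ends and interior within a library carry exact 95% intervals (Clopper-Pearson for shares and ratios, Poisson for densities, conditional for odds ratios). They cover counting error only, treat neighbouring summits as independent and were not adjusted for the number of odds ratios computed, 55 as set out here and 40 under alternatives. Read depth is unknown. Summits were not assigned to genes, and genes mentioned with a band are background.

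HDAC1 summits were about 3 times as dense at chromosome ends as in the rest of the autosomes. In the control library the end windows held 8.45 summits per Mb (interval 7.86 to 9.08) and the interior 2.98 (2.91 to 3.04), a ratio of 2.84 (2.63 to 3.06). With H89 they held 11.1 per Mb (10.4 to 11.8) against 3.58 (3.51 to 3.65), a ratio of 3.09 (2.89 to 3.30). The 88 Mb of end windows make up 3.05% of the autosomes and held 8.21% of control and 8.88% of H89 autosomal summits. All intervals of the ratios lay above 1. Whether reads mapping to several places were kept is not stated in the sources used here, and the part that duplicated end sequence plays in these densities was not tested.

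Most of the end windows stain pale with Giemsa, the property of gene-rich bands, and the density difference was smaller within that class. Giemsa-negative bands took up 71.6 of the 88 Mb. Inside these bands the ends held 9.84 control summits per Mb and the interior 4.54, a ratio of 2.17 (1.9997 to 2.34). With H89 the values were 13.01 and 5.47 per Mb, a ratio of 2.38 (2.22 to 2.55). In the palest Giemsa-positive class the ratio was 1.73 (1.23 to 2.37) in the control and 1.52 (1.10 to 2.05) with H89, from 40 and 44 subtelomeric summits. Neither library had a summit in the 2.10 Mb of the next darker class, of which 2 Mb are the end of the short arm of chromosome 3. Another 10 Mb belong to the short-arm ends of chromosomes 13, 14, 15, 21 and 22, where hg19 holds no assembled sequence, and these ends had no summits. Without those 5 short arms the ratio was 3.12 (2.89 to 3.37) in the control and 3.40 (3.18 to 3.63) with H89. Before that step the interior held 88 Mb of variably stained bands, with 0.273 control summits per Mb. All other lengths counted every base, assembled or not, so no ratio was corrected for further gaps in the assembly.

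Summit density was highest between 0.25 and 1 Mb from the end, not at the outermost sequence. Over the 39 assembled ends, the outermost 0.25 Mb held 6.36 control summits per Mb (4.88 to 8.15). The next 0.25 Mb held 11.6 (9.55 to 13.9) and the interval from 0.5 to 1 Mb held 11.9 (10.4 to 13.5). From 1 to 2 Mb the density was 8.64 (7.74 to 9.61). It was lower again beyond the window, with 5.90 from 2 to 3 Mb, 5.56 from 3 to 5 Mb, 4.29 from 5 to 10 Mb and 2.60 farther than 20 Mb from an end. With H89 the outermost 0.25 Mb held 7.49 summits per Mb (5.87 to 9.41), the next 0.25 Mb held 16.2 and the class from 0.5 to 1 Mb held 15.3. The intervals of the classes from 0.25 to 0.5 Mb and from 0.5 to 1 Mb overlapped in both libraries. Density in the class just beyond the window was still above that of the deep interior, at 8.08 per Mb with H89 against 3.11 farther than 20 Mb from an end.

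**Figure D1:**
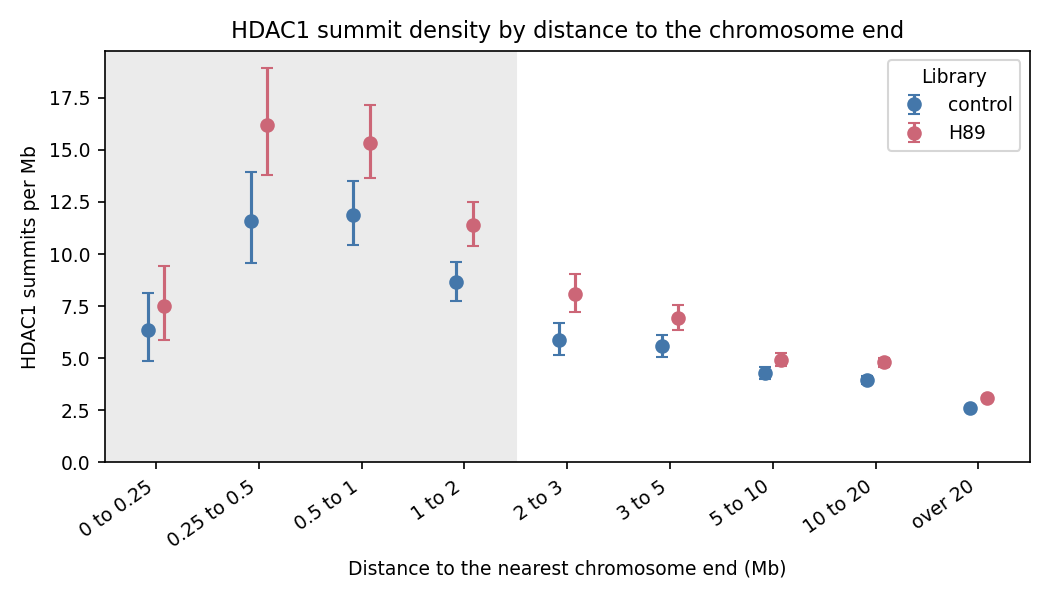
HDAC1 summits per Mb (vertical axis) by distance to the nearest chromosome end in Mb (horizontal axis), for the control and H89 libraries; points are densities over the 39 assembled ends, bars are exact 95% Poisson intervals, the short-arm sides of chromosomes 13, 14, 15, 21 and 22 are left out, and the shaded classes are the subtelomeric window. Control density is 6.36 per Mb in the outermost class, 11.9 from 0.5 to 1 Mb and 2.60 beyond 20 Mb.

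Nearly every chromosome had denser ends than interior. In both libraries 21 of 22 chromosomes did, and the interval of the ratio lay above 1 on 17 chromosomes in the control and on 18 with H89. Chromosome 4, whose interior is gene-poor, had the highest control ratio, with 7.75 summits per Mb at its ends and 1.22 inside (ratio 6.36, interval 4.22 to 9.28). Chromosome 13 had the highest H89 ratio, 6.56 (3.83 to 10.6). Chromosome 14 was the exception, with 2.50 control summits per Mb at its long-arm end and 3.75 in the rest of that arm, a ratio of 0.667 (0.215 to 1.57), and 0.905 (0.388 to 1.80) with H89. On chromosomes 3 and 22 the intervals included 1 in both libraries. Chromosome 19, the most gene-dense, had 20.5 per Mb at its ends and 10.6 inside, a control ratio of 1.93 (1.51 to 2.43).

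Chromosomes 2, 14, 16, 17 and 20, known to be gained in HepG2, held 38.4% of subtelomeric and 31.0% of other control summits (odds ratio 1.39, interval 1.19 to 1.63). Their ends held 14.3 control summits per Mb and those of the other chromosomes 6.74. The ratio of ends to interior was 3.13 (2.76 to 3.54) on these 5 chromosomes and 2.62 (2.37 to 2.88) on the others. DNA copy number was not measured here, and its part in the densities was not tested. Ends of short and long arms had overlapping intervals of density, with 9.21 control summits per Mb (8.21 to 10.3) over 17 assembled short-arm ends and 9.80 (8.89 to 10.8) over 22 long-arm ends.

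Subtelomeric summits were spread unevenly over the ends, from 0 to 64 in the control and from 0 to 80 with H89, with medians of 13 and 17 over the 39 assembled ends. The 8 richest ends held 47.3% of control and 48.2% of H89 subtelomeric summits. The long-arm end of chromosome 17, in band 17q25.3 where the fatty acid synthase gene FASN lies, held 64 control and 80 H89 summits. The short-arm end of chromosome 19 (19p13.3) held 52 and 76. The long-arm end of chromosome 20 (20q13.33) held 50 and 61. At the tip of 16p13.3, the band of the alpha-globin genes, there were 39 and 58. The long-arm end of chromosome 16 (16q24.3 and the adjoining edge of 16q24.2) held 39 and 51. The remaining ends among the 8 were 1p with 36 and 50, 2q with 38 and 47, and 8q with 34 and 47. Every one of the 8 held more summits with H89.

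At the other extreme, the short-arm end of chromosome 3 held none. The ends 9p (2 control and 5 H89), 11q (3 and 4), 2p (4 and 4) and 4q (5 and 4) followed. The 2 ends of a chromosome could differ widely: chromosome 2 had 38 control summits at its long-arm end and 4 at its short-arm end, and chromosome 4 had 26 at its short-arm end and 5 at the other. A poor end could still hold a strong site, since 4q carried 1 summit scoring 10 or more in each library.

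**Figure D2:**
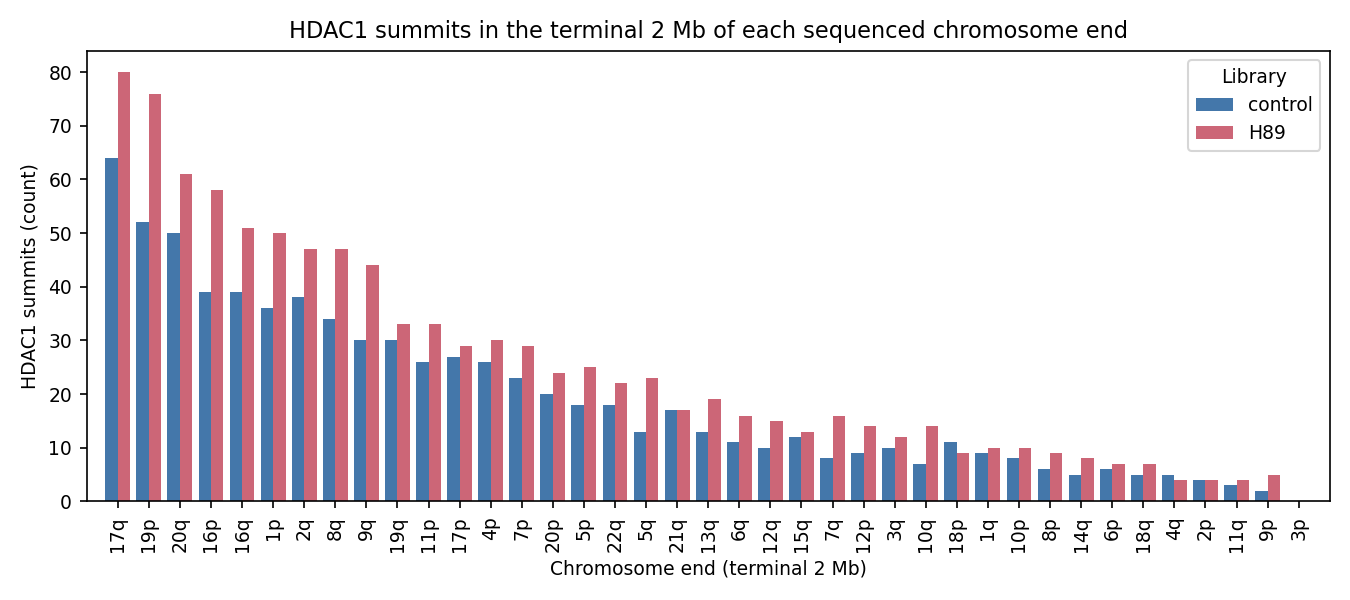
Number of HDAC1 summits (vertical axis) in the terminal 2 Mb of each of the 39 assembled chromosome ends (horizontal axis, ordered by the total of both libraries), with 1 bar for the control and 1 for the H89 library. Counts run from 64 control and 80 H89 summits at 17q to 0 at 3p, and only 4q and 18p have fewer summits with H89.

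Subtelomeric summits scored lower than other summits over the bulk of the distribution but not among strong sites. The median control score was 3.88 at the ends and 4.77 elsewhere, and the upper quartile 5.50 against 5.86. A score of 5 or more was reached by 36.4% of subtelomeric control summits (interval 33.0 to 39.998) and 42.3% of the others (odds ratio 0.780, 0.665 to 0.914). With H89 the medians were 4.58 and 4.76, and the shares at 5 or more were 41.5% and 46.5% (odds ratio 0.819, 0.715 to 0.938).

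Scores of 10 or more were about as frequent at the ends as elsewhere. In the control 48 of 744 subtelomeric summits reached that score (6.45%, interval 4.79 to 8.46), against 6.43% of all autosomal control summits and 6.42% of those outside the windows (odds ratio 1.005, 0.724 to 1.37). With H89 it was 87 of 975 (8.92%, 7.21 to 10.9), against 9.78% of all and 9.86% of the others (odds ratio 0.896, 0.703 to 1.13). The intervals allow a difference in either direction. Per Mb, sites of this strength were as enriched at the ends as summits in general, with ratios of 2.85 (2.08 to 3.84) in the control and 2.80 (2.22 to 3.49) with H89.

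The expected count against which a summit was scored also differed with position. Most scores fall on the steps of −log10 Poisson upper tails of a few means, and these means are read as the counts expected from background. In the control the lowest mean was 0.0269 and the second 0.0473, and further series fitted at 2, 3, 4 and 5 times the second. Subtelomeric control summits were less often on the steps of the lowest mean, 30.1% (26.8 to 33.5) against 42.6% (41.6 to 43.7), an odds ratio of 0.580 (0.491 to 0.684). The H89 shares were 27.6% and 42.7% (odds ratio 0.511, 0.440 to 0.592), with a lowest mean of 0.0271. On the steps of 3 times the second mean were 7.26% of subtelomeric and 5.04% of other control summits (odds ratio 1.47, 1.08 to 1.98). For 4 times it they were 2.15% and 0.878% (odds ratio 2.48, 1.34 to 4.33). For 1, 2 and 5 times it the control odds ratios were 1.09 (0.901 to 1.31), 1.07 (0.830 to 1.35) and 0.977 (0.676 to 1.38), so the odds ratio did not climb steadily with the expected count.

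Among summits on the lowest mean, the counts at the ends were close to those elsewhere. In the control 38.4% of 224 subtelomeric and 39.1% of 3544 other summits stood at the step of 2 counts, and 14.3% and 14.2% at 5 or more. With H89 the shares at 5 or more were 18.96% (14.5 to 24.2) and 17.9% (16.8 to 19.1). The 6 means together covered 78.0% of subtelomeric and 85.1% of other control summits, and the remaining scores were not fitted. Over these means, 218 of 580 subtelomeric control summits stood at 2 counts and 202 at 3. Elsewhere the numbers were 2554 and 2406 of 7073. With H89 275 of 747 subtelomeric summits stood at 2 counts and 217 at 3. Most fitted summits thus rest on very few counts, read from the score steps. Score differences within pairs and missing partners can hinge on such small counts. How far the expected counts account for the lower median score was not tested.

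**Figure D3:**
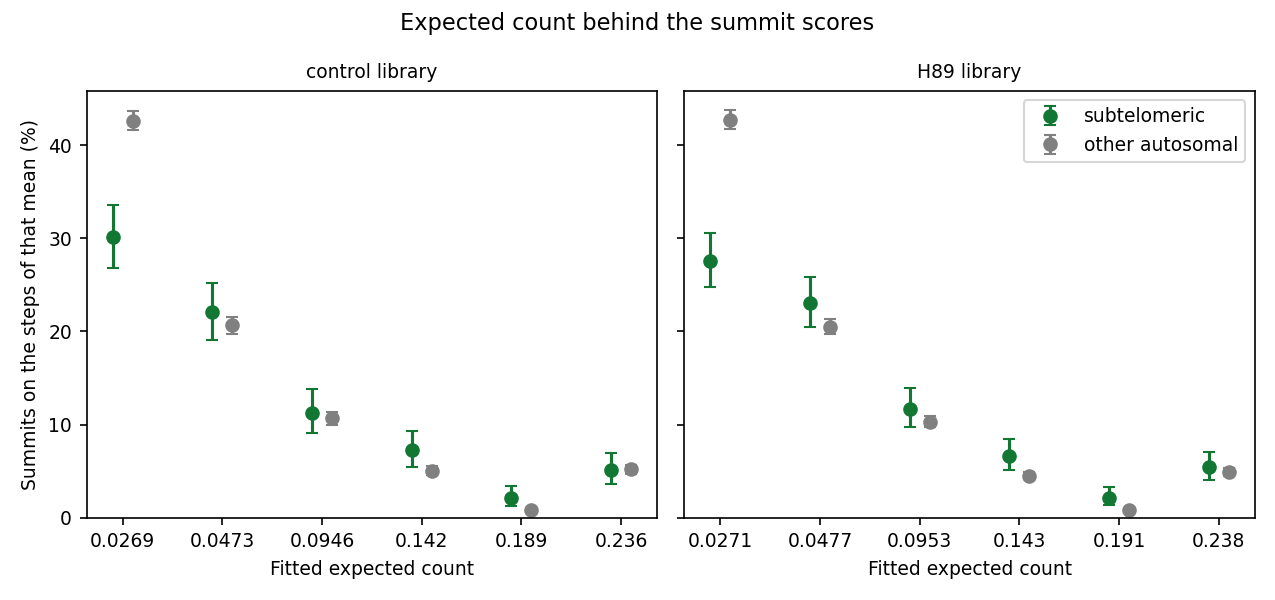
Share of summits, in percent (vertical axis), whose score lies within 0.001 of a step of each of 6 Poisson means (horizontal axis, the fitted expected count), for subtelomeric and other autosomal summits of the control and the H89 library; bars are exact 95% intervals. The lowest mean holds 30.1% of subtelomeric and 42.6% of other control summits.

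Most subtelomeric control summits were called again with H89, while fewer subtelomeric H89 summits had a control partner than H89 summits elsewhere. A partner is a summit of the other list within 1000 bp. Of 744 subtelomeric control summits 639 had one (85.9%, interval 83.2 to 88.3), against 87.5% of all autosomal control summits and 87.7% of those outside the windows (odds ratio 0.857, 0.688 to 1.07). The interval includes 1. Of 975 subtelomeric H89 summits 642 had one (65.8%, 62.8 to 68.8), against 72.4% of all and 73.1% of the others (odds ratio 0.711, 0.617 to 0.820). Among the H89 summits of the ends 333 were left without a partner. Within Giemsa-negative bands the H89 shares were 65.2% and 72.7% (odds ratio 0.702, 0.606 to 0.815).

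Among H89 summits the odds ratio was farthest from 1 at scores of 7 and above, although a difference between score classes was not tested. From a score of 7 up to 10, 116 of 137 subtelomeric H89 summits had a control partner (84.7%, 77.5 to 90.3), against 96.5% of 1504 others (odds ratio 0.198, 0.113 to 0.359). At 10 or more the shares were 94.3% of 87 and 99.1% of 987 (odds ratio 0.151, 0.0443 to 0.589). Below 7 the odds ratio was 0.732 (0.549 to 0.971) from 2 up to 3, 1.07 (0.803 to 1.43) from 3 up to 4, 0.617 (0.397 to 0.975) from 4 up to 5 and 0.761 (0.514 to 1.15) from 5 up to 7. The shares from 2 up to 3 were 39.5% and 47.2%, and from 4 up to 5 they were 69.0% and 78.3%. Among control summits the interval of the odds ratio included 1 in each of the 6 classes, but over all scores of 5 or more it did not (94.5% against 97.0%, odds ratio 0.520, 0.296 to 0.976). The classes were set after results of these data were known.

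**Figure D4:**
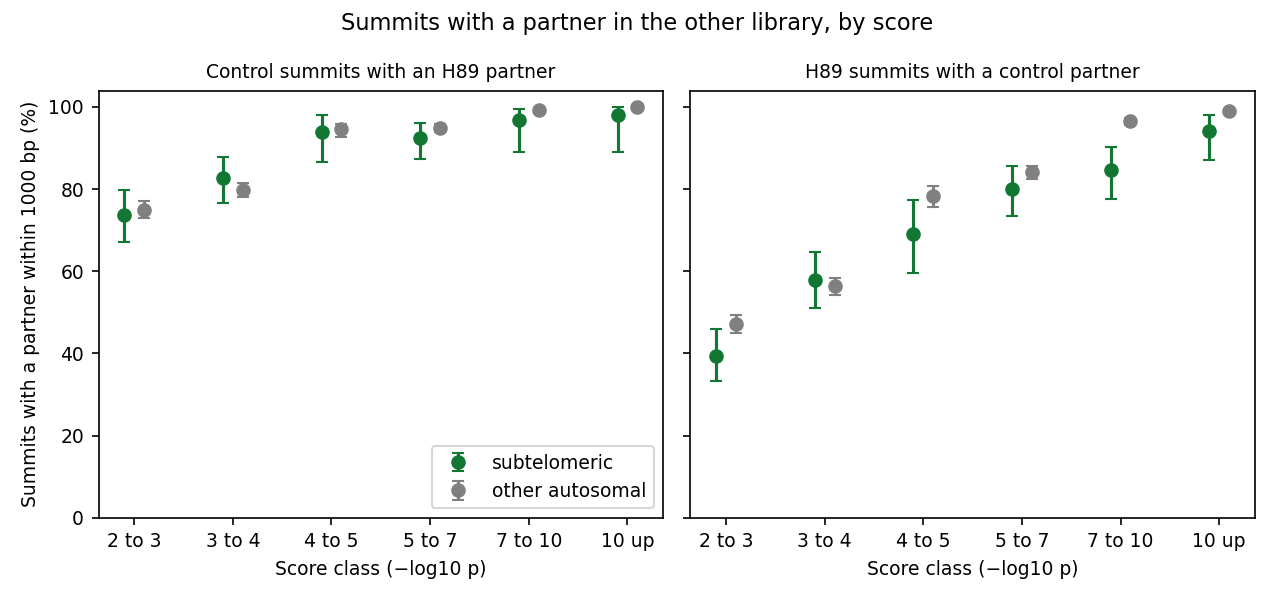
Share of summits with a partner within 1000 bp in the other library, in percent (vertical axis), by score class (horizontal axis, −log10 p), for subtelomeric and other autosomal summits; the left panel shows control and the right panel H89 summits, and bars are exact 95% intervals. In the H89 panel the class from 7 to 10 stands at 84.7% for subtelomeric and 96.5% for other summits.

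Chromosome ends held 231 more summits with H89 than in the control, a ratio of 1.31 (1.19 to 1.44), compared with 1.20 (1.17 to 1.24) for the interior. The odds that an autosomal summit was subtelomeric were 1.09 times as high in the H89 list (interval 0.984 to 1.20), so the ratios of ends and interior were not told apart. Because most summits occur in both lists, intervals of such ratios, which take the lists as independent, are only a guide. For summits without a partner the H89 to control ratio was 3.17 (2.54 to 3.99) at the ends and 2.63 (2.44 to 2.83) elsewhere. By score class it was 1.20 at the ends and 1.10 elsewhere from 2 up to 3, 1.14 and 1.11 from 3 up to 4, 1.36 and 1.15 from 4 up to 5, and 1.13 and 1.15 from 5 up to 7. Among scores from 7 up to 10 it was 2.17 (1.60 to 2.98) at the ends, from 63 control and 137 H89 summits, and 1.36 (1.26 to 1.47) elsewhere. At 10 or more it was 1.81 (1.26 to 2.63) and 1.85 (1.66 to 2.06). A difference in library depth or efficiency cannot be told apart from H89 treatment in any of these ratios.

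Of the 39 assembled ends, 34 had more summits in the H89 list, 2 had fewer and 2 had equal numbers above 0. The ends with fewer were 18p (11 control and 9 H89) and 4q (5 and 4). Among the 28 ends whose 2 libraries together held at least 20 summits, the highest ratios were 2.0 (0.808 to 5.40) at 7q, 2.0 (0.755 to 5.86) at 10q and 1.77 (0.859 to 3.803) at 5q. The lowest were 0.818 (0.300 to 2.17) at 18p, 1.0 (0.480 to 2.08) at 21q and 1.07 (0.614 to 1.89) at 17p. In none of the 28 did the interval exclude the ratio of the interior, which at these counts says little about how alike the ends were.

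Subtelomeric sites called in both libraries scored higher with H89 more often than in the control. There were 628 one-to-one pairs, mutually nearest summits within 1000 bp. With H89 345 of them scored higher by more than 0.1 (54.9%, interval 50.9 to 58.9), against 49.8% of all autosomal pairs and 49.3% of the 7190 pairs outside the windows (odds ratio 1.25, 1.06 to 1.48). The control score was higher in 99 (15.8%, interval 13.001 to 18.9), against 14.6% of all pairs and 14.5% of those outside the windows. Pairs within 0.1, counted as tied, numbered 184 of 628 at the ends and 2600 of 7190 elsewhere, a smaller share at the ends. The odds ratio counts tied pairs as not higher, so fewer ties at the ends raise it. Among untied pairs, 345 scored higher with H89 and 99 in the control at the ends, and 3545 and 1045 did so elsewhere. These proportions are close, so the odds ratio does not show a difference in direction between ends and interior. The median difference was 1.02 at the ends and 0.00 elsewhere, but the quartiles were close. They were -0.010 and 2.16 at the ends and -0.010 and 2.08 elsewhere. Without the 5 gained chromosomes the odds ratio was 1.17 (0.942 to 1.45), and with windows of 5 Mb it was 1.11 (0.977 to 1.25), so this excess over the interior was not called under either choice. At 35 ends more pairs scored higher with H89 than in the control, and at no end did fewer. Pairs of all autosomes leaned the same way (49.8% and 14.6%). No such count was made for the interior, so it does not set the ends apart.

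The excess over the interior, with tied pairs counted as not higher, was not seen in all score classes. At mean scores from 2 up to 4, 40.7% of 216 subtelomeric pairs scored higher with H89, against 29.9% of the others (odds ratio 1.61, 1.20 to 2.17). From 4 up to 6 it was 54.5% of 213 against 47.7% (odds ratio 1.31, 0.981 to 1.76). From 6 up to 10 it was 72.5% of 138 against 63.6% (odds ratio 1.51, 1.01 to 2.28). In the class from 10 up to 20 it was 61.2% of 49 against 74.7% (odds ratio 0.534, 0.283 to 1.03). In that class 13 subtelomeric pairs scored higher in the control (26.5%, 14.9 to 41.1), against 11.0% (8.79 to 13.6) of the other pairs. Of the 12 subtelomeric pairs with a mean of 20 or more, 11 scored higher with H89, against 74 of 90 elsewhere (82.2%). The odds ratio was 2.36 (0.301 to 109), an interval that includes 1. The median difference of these pairs was 14.7 at the ends and 5.22 elsewhere.

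**Figure D5:**
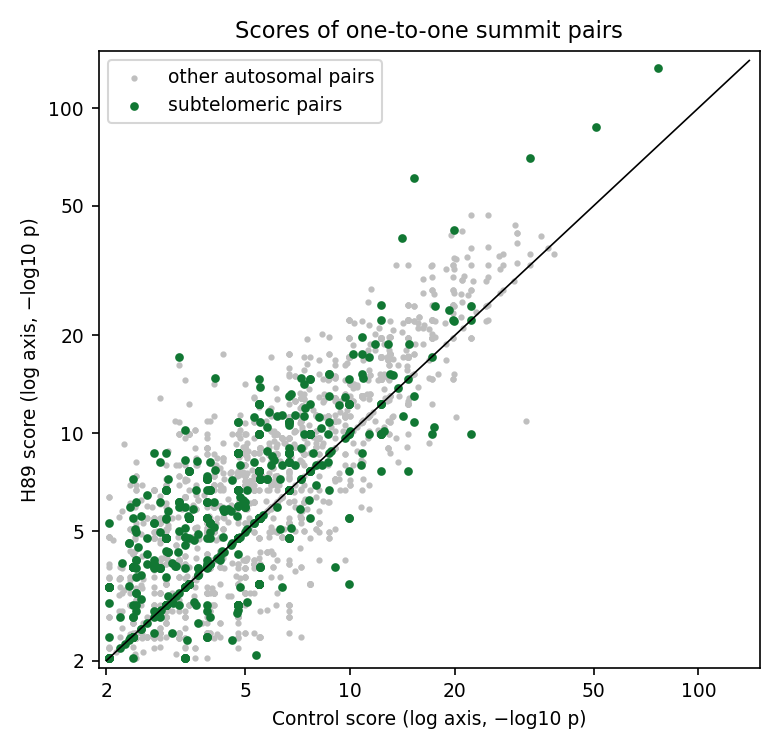
H89 score (vertical log axis, −log10 p) against control score (horizontal log axis, −log10 p) of one-to-one summit pairs, with 628 subtelomeric pairs in green and 7190 other autosomal pairs in grey; the line marks equal scores. The highest subtelomeric pair stands at 76.5 in the control and 133 with H89. With a mean of 20 or more, 11 of 12 subtelomeric and 74 of 90 other pairs scored higher with H89 by more than 0.1.

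The 2 highest-scoring autosomal pairs in each library lay at chromosome ends, a lead that held for few sites. Subtelomeric pairs were 8.03% of the 7818 autosomal pairs. They supplied 4 of the 5 highest H89 scores, 2 of the 5 highest control scores, and all 5 of the largest score gains with H89. Among the 20 highest scores their number was 3 in the control and 6 with H89. Among the 50 highest scores it was 6 in each library, which is 12.0% of the 50. Unpaired summits were not ranked. These ranks describe single sites of 1 library per condition.

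The site with the highest score in both libraries lay in 6q27, 1874 kb from the end of chromosome 6. Its control summit, at position 169240780, scored 76.5, and its H89 summit, at 169240719, scored 133. The next, in 20q13.33 and 452 kb from the end of chromosome 20, scored 50.8 (control summit at 62573492) and 87.5 (H89 summit at 62573505). In 21q22.3, 525 kb from the end of chromosome 21, the control score was 32.9 at 47604530 and the H89 score 70.4 at 47604509. The differences of these 3 sites, from 36.7 to 56.6, are on a −log10 scale, on which the same proportional difference in counts adds more at stronger sites.

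The other 7 of the 10 highest subtelomeric control sites ranged from a deficit of 12.4 with H89 to a gain of 22.4. In 5q35.3 the summit at 179125778 of chromosome 5 scored 22.3 in the control, and its H89 partner at 179125807 scored 22.2. The site in 19p13.3 at 605552 of chromosome 19 scored 22.2 and, at 605502, 24.6. On chromosome 15 in 15q26.3, the site at 102195623 scored 19.8 and its H89 partner at 102195423 scored 22.2. A neighbouring site in the same band, 101874549, scored 22.3 in the control, while its H89 partner at 101874508 scored 9.92, the largest deficit among the subtelomeric pairs. Both 16q24.3 sites among the 10 highest scored slightly higher with H89, at 19.7 and 22.2 for the site at 89768337 of chromosome 16 and at 19.2 and 24.0 for that at 89307566. The site in 20p13 at 328690 of chromosome 20 scored 19.8, against 42.2 at 328594 with H89.

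Sites of moderate control score reached high H89 scores at several ends. In 10p15.3 the control summit at 1092925 of chromosome 10 scored 15.2 and ranked 153 among autosomal pairs. Its H89 partner at 1093040 scored 61.0 and ranked 4. A further site in 20q13.33, at 61592572 in the control and 61592555 with H89, went from 14.1 to 39.8. On chromosome 4, in the sparsely occupied end 4q35.2, the site at 190573077 scored 12.3 and its partner at 190572995 scored 24.8. The site in 12q24.33 at 133174933 of chromosome 12 scored 17.5, against 24.6 at 133175001. Another 6q27 site, 252 kb from the end of chromosome 6, scored 12.3 at 170863160 and 22.2 at 170863179.

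After the site in 15q26.3, the next largest deficits with H89 lay between 6.50 and 7.25 on the score scale. In 9q34.3, the band of the NOTCH1 gene, the scores were 17.2 at 139916629 of chromosome 9 in the control and 9.92 at 139916567 with H89. The site in 7p22.3 at 579368 of chromosome 7 scored 14.7, against 7.66 at 579324. In 19p13.3 the scores were 17.4 at 674671 and 10.4 at 674701, 69.1 kb from the site at 605552 that scored higher with H89. The site in 18p11.32 at 712462 of chromosome 18 scored 9.94, against 3.44 at 712581. Gains reached 56.6 on the score scale and deficits 12.4.

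Few strong subtelomeric sites were called in 1 library alone. Of the 10 highest unpaired autosomal summits, 2 in the control and 3 with H89 lay at chromosome ends. The ends held 105 unpaired control and 333 unpaired H89 summits in all, against 1026 and 2696 elsewhere. Of the 333 unpaired H89 summits at the ends 5 scored 10 or more, compared with 9 of 2696 unpaired H89 summits elsewhere. The highest of those elsewhere scored 38.0. The highest at the ends lay in 10q26.3 at 133972268 of chromosome 10, scoring 22.2, with the nearest control summit 91.7 kb away. Next were 16q24.3 at 88905645 of chromosome 16 (12.97, nearest control summit 17.5 kb away) and 8p23.3 at 1845653 of chromosome 8 (12.3, 133 kb). The other 2 scored 10.8, at 88897874 of chromosome 16, 7.77 kb from the site just named there, and at 426661 of chromosome 19.

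Among the unpaired control summits of the ends 1 scored 10 or more, and no unpaired control summit elsewhere on the autosomes did. It lay in 16q24.3 at 88999893 of chromosome 16, scored 14.7 and was 76.6 kb from the nearest H89 summit. So 16q24.3 held the strongest control-only site and 2 of the 5 strongest H89-only sites of the ends. The next unpaired control summits were at 170199856 of chromosome 6 (9.94) and 199957 of chromosome 19 (7.29), 1.31 and 1.28 kb from an H89 summit. They were followed by 1582785 of chromosome 4 (5.88, 131 kb away) and 547298 of chromosome 1 (5.50, 1.67 kb). Of all unpaired subtelomeric summits, 22 control and 48 H89 summits had a summit of the other list between 1 and 2 kb away, while 61 and 196 had none within 10 kb. The latter were 58.1% of unpaired subtelomeric and 65.7% of other unpaired control summits (odds ratio 0.724, 0.473 to 1.12), and with H89 58.9% and 72.8% (odds ratio 0.533, 0.419 to 0.680). Both lists are denser at the ends, which by itself brings a summit of the other list within 10 kb more often. The shares were not compared at equal density. Counts between 1 and 2 kb were not made for the interior. With partners allowed within 2000 bp, 70.8% of subtelomeric and 75.4% of other H89 summits had one (odds ratio 0.791, 0.682 to 0.918). For control summits these shares were 88.8% and 89.4%. A summit can be missing from a list because it fell just short of the threshold, so being unpaired does not show absence of HDAC1.

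Subtelomeric summits lay closer to one another than summits elsewhere, a direction that their higher density brings by itself. Clustering beyond that density was not tested. The median distance to the next summit of the same list was 13.8 kb at the ends and 30.1 kb elsewhere in the control, and 9.48 and 24.4 kb with H89. Another summit within 5 kb was found for 31.5% of subtelomeric and 20.3% of other control summits (odds ratio 1.80, 1.52 to 2.13). With H89 it was 36.8% and 23.2% (odds ratio 1.93, 1.67 to 2.22). Of 617 control runs at the ends, summits joined by gaps of at most 5 kb or standing alone, 14 held 3 or more summits (2.27%, interval 1.25 to 3.78), against 139 of 7379 elsewhere (1.88%, 1.59 to 2.22). With H89 the numbers were 36 of 770 (4.68%, 3.30 to 6.41) and 169 of 8736 (1.93%, 1.66 to 2.25).

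Among subtelomeric runs, those with the most summits were at the ends of chromosomes 17 and 19, with 5 in the control and 6 with H89. Elsewhere on the autosomes the largest runs had 8 and 7 summits. In 17q25.3 a run of 5 control summits stretched from 80054225 to 80064135 of chromosome 17, and a run of 6 H89 summits from 80051843 to 80064143 covered it. No summit of it scored above 5.30 in the control or above 8.15 with H89. In 19p13.3 a run of 6 H89 summits lay between 1857345 and 1875930 of chromosome 19, with a highest score of 13.9. Another 19p13.3 run, of 4 control summits from 674671 to 680821, contained the site that scored 17.4 in the control and 10.4 with H89. These runs were chosen after their values were seen.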

How the data were processed

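CUT&Tag for HDAC1 was performed in 2 HepG2 libraries, untreated and H89-treated. The authors deposited 1 headerless list per library with a 1-bp summit, a peak name and a score, read here as −log10 of an unadjusted p-value because most scores lie within 0.001 of −log10 Poisson tails. Lists were assigned by the peak names, which match the sample titles. Bowtie 0.12.2 and hg19 are named per the submitters' processing notes. The peak caller, its control and threshold, and read filters are not stated in the sources used here. Chromosome lengths and bands came from GenomeInfoDb 1.38.1 and circlize 0.4.16 (R 4.3.3). The members, lists and tests were chosen with earlier results of these data known.

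Named sites are the 10 pairs with the highest control score, the 5 with the highest H89 score among the rest, the 5 largest H89 deficits, and the 5 highest unpaired summits per list. Named ends are the 8 richest, the 5 poorest, and 3 with the highest and 3 with the lowest H89 to control ratio. Other sites and runs were chosen after their values were seen. Functions were tested on simulated lists. Alternatives covered window width, band class, merging, score minimum, partner distance, gained chromosomes and the richest end. Calculations used Python 3.11.15 with scipy 1.17.1, pandas 2.3.3 and numpy 2.4.6, and plots matplotlib 3.10.9.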

Additional observations from a re-analysis of the deposited data

How the results depend on the processing

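The density ratios stayed above 1 in all 8 alternatives (2.17 to 3.12 in the control, 2.38 to 3.40 with H89), as did the H89 to control ratio of subtelomeric summits in its 7 (1.30 to 1.49). The share of pairs scoring higher with H89 ranged from 51.9% to 57.4%, and its odds ratio against other pairs lost its call with 5 Mb windows (1.11) and without chromosomes 2, 14, 16, 17 and 20 (1.17). Shares with a partner depended on the criterion. For control and H89 summits they were 94.5% and 84.7% at scores of 5 or more, 56.5% and 43.1% within 100 bp, 88.8% and 70.8% within 2000 bp, and 1.48% and 1.13% on the identical base. The odds ratio of the H89 share lay between 0.526 and 0.910 and was not called on the identical base (0.910). That of the control share was below 1 by its interval at scores of 5 or more (0.520), within 100 bp (0.817) and without the 5 gained chromosomes (0.745), which leaves fewer summits. Shares past other score limits were 36.4% and 41.5% at 5 or more and 0.806% and 1.54% at 20 or more, for control and H89. Their odds ratio changed side in the control with a limit of 5 (0.780) and with 5 Mb windows (0.952), and with H89 at 20 or more (1.09), while the H89 value was called at 5 or more (0.819). The causes of these changes were not tested. Without 17q, the richest end, no call changed. No paired analysis was possible because each condition has a single library. Unknown depth, the single libraries, unstated read filters and the missing peak widths limit all values.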

Other observations

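The ends of chromosome X, outside the selection, held 8 control and 10 H89 summits on the short arm and 11 and 15 on the long arm. Their density was 6.65 times that of the interior of X in the control (interval 3.86 to 10.9) and 6.48 times with H89 (4.06 to 9.94), counting error only.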
